A study of Mus musculus with 6 samples.

Results

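The muscle regulatory factors of the head were followed across single cells of the mouse embryo. The 7 genes were Tcf21, Msc and Lhx2, which act early in pharyngeal muscle progenitors, the myogenic factors Myf5, Myod1 and Myog, and Musk, a receptor kinase of the muscle membrane. They were taken by gene symbol, and all 7 were found among the 32285 genes of the deposited count matrix. The cells came from the microdissected cardiogenic region of wild type C57BL/6 embryos at E10.5, which per the labels also holds mesoderm outside the heart, ectoderm and endoderm. The labels name 6 samples. In 3 of them the mothers were pretreated with vehicle, and in the other 3 with streptozotocin, which is toxic to pancreatic beta cells, and the females were hyperglycemic. Normal glycemic males sired the embryos of both groups. The labels do not say how many embryos went into a sample, and while their descriptions speak of chromatin, the other fields and the values are those of RNA.

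Barcodes in the matrix end in a number from 1 to 6, one for each library, and nothing in the files pairs a library with a sample. Vehicle and streptozotocin were therefore not compared, the libraries are not replicates of a group, and no test was run. Values are given for all cells and for each library by its number. After filtering for at least 2500 genes and at most 10% mitochondrial unique molecular identifiers (UMIs, each marking 1 captured RNA molecule), 35962 of 53362 barcodes were kept, between 4903 and 7136 per library, with library medians of 30533 to 35634 UMIs per cell. Over all barcodes, 2777 sequences occurred in more than 1 library, and 2890 of the kept cells carried one of these. Among the kept cells alone, 141 sequences occurred in more than 1 library. Library 1 stood apart in Xist, the RNA of the inactive X chromosome, at 383 CPM (counts of UMIs scaled to 1000000 per sum) against at most 0.342 in the others. Intervals below are exact 95% intervals and cover counting error only.

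Head muscles arise from pharyngeal mesoderm without the Pax3 program that somites use. In the arches, Tcf21 (capsulin) and Msc (MyoR) are paired basic helix-loop-helix factors, Lhx2 is a LIM homeodomain factor, and all act with Tbx1 upstream of Myf5 and Myod1. Myf5 and Myod1 commit cells to muscle, Myog drives their differentiation, and Musk organises the later neuromuscular synapse. Tcf21 is also a well known factor of the epicardium, the outer cell layer of the heart.

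The myogenic factors bind E-boxes, the 6 letters CANNTG, so the start regions of genes on which the results turn are shown first. Each window runs from 250 bases before to 50 bases after the start, from RefSeq on build GRCm38.p6, with every E-box in capitals on the strand of the gene. Windows were found for 5 of the 7 genes. The Myf5 window is chr10:107486085-107486384 on the minus strand, the Myog window chr1:134289754-134290053 on the plus strand, and the Lhx2 window, upstream of the first of its listed starts, chr2:38339031-38339330 on the plus strand.
Myf5: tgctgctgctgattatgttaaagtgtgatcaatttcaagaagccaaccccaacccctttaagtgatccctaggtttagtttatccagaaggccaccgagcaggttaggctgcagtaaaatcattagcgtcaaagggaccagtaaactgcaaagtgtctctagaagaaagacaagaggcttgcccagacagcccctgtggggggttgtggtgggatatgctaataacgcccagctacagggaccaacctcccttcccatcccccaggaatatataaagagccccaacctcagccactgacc
Myog: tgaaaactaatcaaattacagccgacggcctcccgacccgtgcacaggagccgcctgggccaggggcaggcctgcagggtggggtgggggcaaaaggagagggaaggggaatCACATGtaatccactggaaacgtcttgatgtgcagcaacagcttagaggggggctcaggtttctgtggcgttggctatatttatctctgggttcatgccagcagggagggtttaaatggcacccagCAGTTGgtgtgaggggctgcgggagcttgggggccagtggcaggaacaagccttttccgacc
Lhx2: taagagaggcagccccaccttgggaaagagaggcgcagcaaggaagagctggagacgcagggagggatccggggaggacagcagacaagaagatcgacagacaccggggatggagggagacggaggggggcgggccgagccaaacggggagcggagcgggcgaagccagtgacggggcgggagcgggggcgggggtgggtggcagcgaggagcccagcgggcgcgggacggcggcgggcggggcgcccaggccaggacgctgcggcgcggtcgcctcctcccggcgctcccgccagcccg
The Myog window held 2 E-boxes, and the Myf5 and Lhx2 windows shown held none. The window of the other listed Lhx2 start held 1. Of 32851 windows of this length, 72.3% held at least 1 on either strand. The E-box CAGCTG, counted also among the CANNTG matches, lay in 16.3% of all windows and in 1 of the members' windows, that of Musk. TAATTA, a homeodomain core, lay in 5.29% of all windows and in none of the members'. These matches describe letters in a window, not bound sites.

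In GENCODE M21 on GRCm38, Myf5 (ENSMUSG00000000435) spans chr10:107482908-107486134 and Tcf21 (ENSMUSG00000045680) chr10:22817281-22820174, both on the minus strand. Msc (ENSMUSG00000025930) spans chr1:14753346-14755992 on the minus strand and Myog (ENSMUSG00000026459) chr1:134289989-134292548 on the plus strand. The others lie on the plus strand, with Myod1 (ENSMUSG00000009471) at chr7:46376474-46379099, Lhx2 (ENSMUSG00000000247) at chr2:38339281-38369733 and Musk (ENSMUSG00000057280) at chr4:58285960-58374303. The counts are per whole gene from 3′ reads, so exons and isoforms were not told apart.

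The 7 genes differed by orders of magnitude in how many cells held a UMI. Tcf21 was found in 9323 cells, Msc in 2405, Lhx2 in 1503, Myf5 in 701, Myog in 156, Myod1 in 99 and Musk in 58. The committed factors were thus rare, and the early factors common. Myf5 cells numbered 162 in library 1 and 101 to 116 in each of the others, and Myog cells 27, 28, 42, 24, 21 and 14 in libraries 1 to 6. Myod1 cells numbered 17, 8, 34, 9, 16 and 15, so that library 3 held more of them than any other library.

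Cells were placed by marker gates. A cell fell in a gate when at least 3 markers of 1 of 17 lists had 2 or more UMIs and that list scored clearly above all others. None of the 7 genes is on a list. A single gate took 25163 cells, 5497 scored alike for several gates and 5302 reached none, the last with a median of 17784 UMIs. The branchiomeric muscle gate held 869 cells, 143, 160, 97, 165, 155 and 149 in libraries 1 to 6. Its name is that of its list. Tbx1 was detected in 96.2% of its cells, Des in 94.9%, Ebf3 in 93.7% and Rxrg in 48.3% and Cdh15 in 12.0%, but Chrna1 in 0.345%, Chrnd in 1.5%, Chrng in 1.38% and Mymk in 0 of 869. Des was also found in 43.4% of the cells of the other gates. The gate thus held cells with early pharyngeal mesoderm markers, and the acetylcholine receptor and fusion genes of differentiated muscle were at or near 0. The scoring favoured this, because markers found in very few cells had weight 0. Mymk was found in only 23 cells of the data, and Chrna1 never passed 1 UMI in a cell. A cell with 21 Myog UMIs, described below, held 22 Des, 4 Chrng and 2 Mymk UMIs and was in no gate. Whether the gate left out differentiated muscle cells was not tested. The paraxial mesoderm gate, for cells with somite markers such as Tcf15, Meox1 and Pax3, held 418 cells, of which 196 were in library 5 and 23 in library 3.

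Lhx2 was highest in the muscle gate, far above every other gate. Its level was 147, 66.2, 132, 58.7, 73.1 and 105.4 CPM there in libraries 1 to 6, and 93.7 CPM (90.1 to 97.5) over all. The next gate, neurons, was at 5.31 CPM, 17.7-fold lower, and the ranges over libraries did not overlap. The neuron value came from libraries 1, 4 and 5, and Lhx2 was at 0 UMIs in that gate in libraries 2, 3 and 6. Without library 5 it was 3.45 CPM. Lhx2 UMIs were found in 38.4% of muscle gate cells (median 28176 UMIs) and in 0.594% of erythroid gate cells (median 64321 UMIs), where the gene should be silent. The erythroid gate had 41 Lhx2 UMIs in 9 cells, of which 5 held 2 or more and 4 also held Myf5. The part of free RNA and of doublets in them was not tested. The second heart field gate and the epicardium gate, at 3.16 and 3.09 CPM, could not be placed in order.

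Tcf21 was highest in the epicardium and mesothelium gate, with the muscle gate next. In libraries 1 to 6 it was 197, 230, 274, 157, 197 and 217 CPM in the epicardium gate, and 217 CPM (214 to 220) over all. In the muscle gate it was 150, 173, 187, 139, 145 and 163 CPM, and 158 CPM (153 to 163) over all. The epicardium value was above the muscle value in 6 of 6 libraries, by 1.38-fold over all, although the ranges over libraries overlapped. The second heart field gate followed at 76.1 CPM (58.3 to 83.5 over libraries), below every muscle gate value. Tcf21 UMIs were seen in 84.6% of muscle gate cells and 3.30% of erythroid gate cells. Cushion mesenchyme, at 22.7 CPM, and smooth muscle, at 17.1 CPM, were not separated by the library ranges.

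Msc was shared between the second heart field and pharyngeal mesoderm gate and the muscle gate. In the muscle gate it was 54.1, 28.3, 42.1, 17.7, 18.5 and 28.6 CPM in libraries 1 to 6. In the second heart field gate it was 2.23, 3.8, 39.5, 54.9, 59.4 and 47.4 CPM. Libraries 1 and 2 were thus low for Msc in that gate, where they had 220 and 207 cells against 397 to 967 in the other libraries, and were not low in the muscle gate. The Tcf21 level of the second heart field gate showed no such gap, at 58.3 CPM in library 1 and 83.5 CPM in library 2. The part of the smaller gate in the Msc gap was not tested. Over all cells of each gate Msc was 45 CPM (43.6 to 46.4) in the second heart field and 30.3 CPM (28.2 to 32.5) in muscle, with the former higher in 3 of 6 libraries, so the order was not stable over libraries. With 1 more marker required for a gate the order turned, with 43.2 CPM in the second heart field and 46.8 CPM in muscle. Msc UMIs were found in 28.4% of muscle gate cells and 0.990% of erythroid gate cells.

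Myf5 marked the muscle gate and the paraxial gate, and nothing else to a comparable degree. In the muscle gate it was 28.4, 13.5, 20.9, 14.5, 17.1 and 21.3 CPM in libraries 1 to 6, and 19.0 CPM (17.4 to 20.7) over all. In the paraxial gate it was 31.0, 18.4, 82.5, 21.4, 7.15 and 18.1 CPM, and 19.4 CPM (17.1 to 21.8) over all. The gates did not differ beyond the spread of the libraries, the paraxial value being the higher in 4 of 6. Library 3 was highest and library 5 lowest in the paraxial gate. Leaving out library 5, which gave 196 of its 418 cells, raised the paraxial value to 29.2 CPM. With 1 more marker required for a gate, the order turned, with 30.1 CPM in muscle and 24.7 CPM in the paraxial gate. The next gate, neurons, was at 0.817 CPM, and at 0.446 CPM without library 1. Myf5 UMIs were found in 24.4% of muscle gate cells, 22.5% of paraxial gate cells and 0.264% of erythroid gate cells. With each cell thinned to 10000 UMIs the shares were 11.3%, 9.98% and 0.132%.

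Myod1 and Myog followed the same gates at far lower levels. Myod1 was 1.51 CPM (1.08 to 2.05) in the muscle gate, from 40 UMIs in 19 cells, and 1.67 CPM (1.06 to 2.50) in the paraxial gate, from 23 UMIs in 16 cells. A single cell of library 2 carried 12 of the 40 muscle gate UMIs, which made library 2 the highest at 3.00 CPM against 0.673 to 1.76 CPM in the others. By library the paraxial Myod1 level was 9.21, 0.996, 5.03, 0.691, 0.65 and 0 CPM, above the muscle level in 2 of 6 libraries. Library 1 gave 11 of the 23 UMIs, and without it the paraxial level was 0.953 CPM (0.493 to 1.67). Myod1 in the gates could thus not be placed in order. Myog was 3.63 CPM (2.69 to 4.78) in the paraxial gate and 1.06 CPM (0.701 to 1.53) in the muscle gate, higher in the former in 5 of 6 libraries with overlapping ranges. By library the paraxial Myog level was 10.0, 6.48, 13.1, 2.07, 1.14 and 1.01 CPM, high in libraries 1 to 3 and low in libraries 4 to 6, and 5.64 CPM without library 5. Neither gene gave a UMI in the 1515 erythroid gate cells, which allows a share of cells giving a UMI, not of cells expressing the gene, of up to 0.198% by the limit of 3 cells and 0.243% by the exact interval. Myog was also seen in 11 of 1778 epicardium gate cells and 10 of 2775 cardiomyocyte gate cells.

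Musk was close to absent at this stage. Its 61 UMIs lay in 58 cells, and in no gate of at least 50 cells did its level pass 0.145 CPM. The muscle gate had 2 UMIs, both in library 5 (0.0091 to 0.272 CPM), and cushion mesenchyme 9 (0.044 to 0.184 CPM), so Musk was not detectably higher in the muscle gate at this depth. Only 1 of the 58 cells held more than 1 Musk UMI. That cell, of library 5 and in no gate, had 4 Musk UMIs and also the 21 Myog UMIs that were the highest count of any cell.

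**Figure D1:**
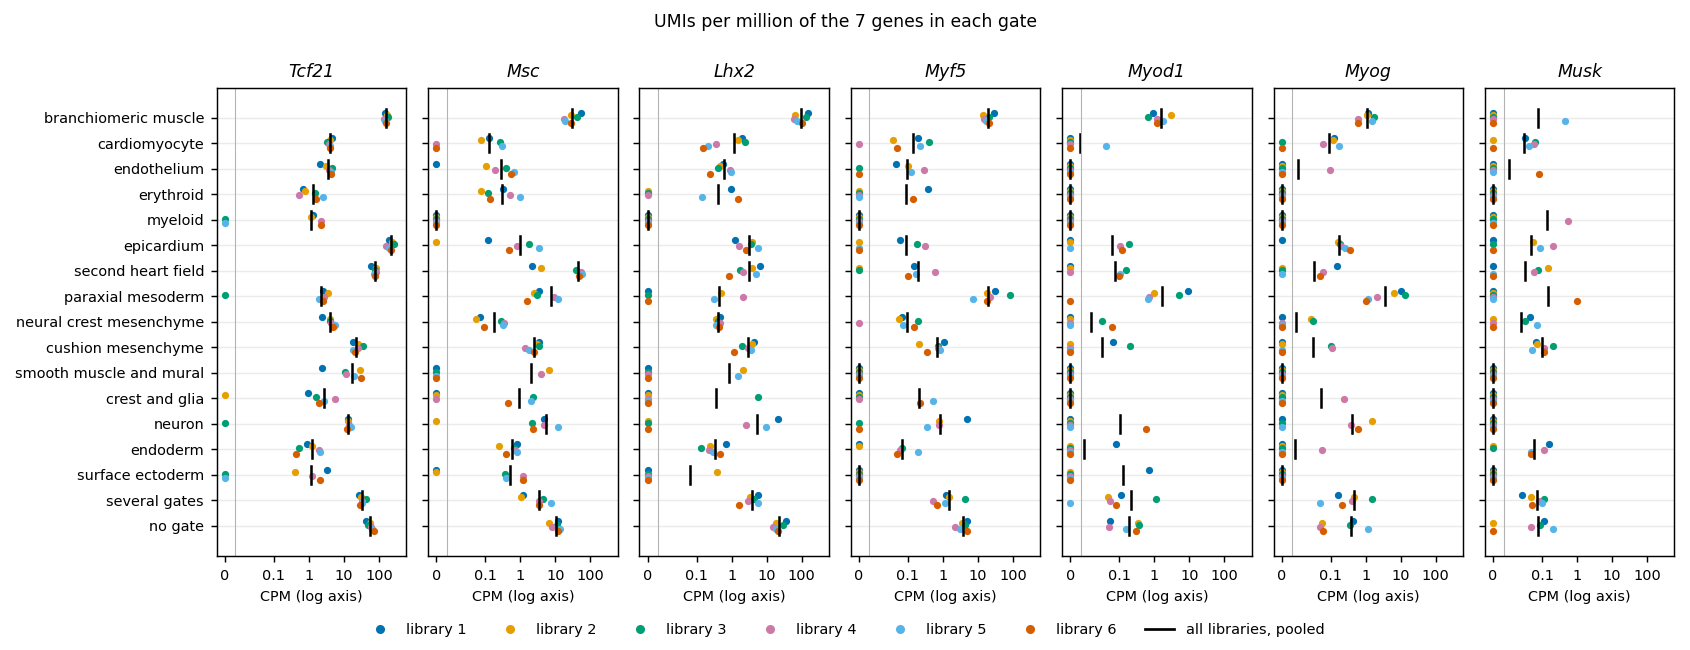
Level of each gene, in CPM on a log axis, in each gate with at least 50 cells, in cells of several gates and in cells of no gate. Coloured points are the 6 libraries, black bars all libraries pooled, and values of 0 are drawn left of the grey line. Lhx2 peaks in the muscle gate (93.7 CPM), Tcf21 in the epicardium gate (217 CPM), and Myf5 in both the muscle and the paraxial gate (19.0 and 19.4 CPM).

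Many members' cells lay outside the single gates. Of the 701 Myf5 cells, 212 were in the muscle gate, 94 in the paraxial gate, 201 in no gate and 111 in several. Of the Lhx2 UMIs, 36.0% were in the muscle gate and 33.2% in cells of no gate. Shares of a gate therefore describe the cells that could be gated, and the rest of the report uses all cells unless a gate is named. In summed counts, fewer cells holding a gene and less RNA per cell give the same level, which is why shares of cells stand beside the CPM.

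Against all other gates, the genes of the muscle gate were compared by fold. A gene was tested at 10 CPM or more on either side, and called when it passed 2-fold, after 1 CPM was added, over all and in every library with 20 cells on each side. By this rule 1.79% of 9267 tested genes were higher and 3.13% lower in the muscle gate. Of the 7 members, 4 were tested and 3 of these were called higher, Lhx2 (41.0-fold), Myf5 (13.8-fold) and Tcf21 (5.09-fold). Msc was 5.21-fold higher over all but was under 2-fold in library 5, at 18.5 against 10.9 CPM, and was not called. Myod1, Myog and Musk were below 10 CPM on both sides.

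The upstream regulators of head muscle were high with them. Of 18 listed genes 16 were tested, and 11 were called higher and 2 lower. Their median log2 ratio was 2.10, against 0.12 for all tested genes. Tbx1, Rxrg and Ebf3 are markers of the gate and so had to be high. Of the others, Ebf1 was 383 CPM against 118, Eya1 321 against 49.1, Eya4 312 against 34.8 and Isl1 224 against 54.0 CPM. Fgf10, the growth factor of pharyngeal mesoderm, was 64.3 CPM against 8.33. Nkx2-5 and Gata6, factors of the heart and its progenitors, were the 2 called lower. Nkx2-5 is a marker of the cardiomyocyte gate and Gata6 of the second heart field gate. Both gates are on the other side, so the gates favoured these falls. The counts and the median of the list include the gate markers.

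None of the tested genes of muscle differentiation was called higher in the muscle gate. Whether that gate left out differentiated cells was not tested, as said above. Of 25 listed genes 12 were tested, 7 were called lower, and the median log2 ratio was -2.85. Others were under 10 CPM on both sides, among them the gate markers Cdh15, a cadherin of myoblasts, at 6.03 against 0.66 CPM, and the receptor subunits Chrnd, at 0.49 against 0.0545 CPM, and Chrng, at 0.49 against 0.121 CPM. The other gates include cardiomyocytes, which express many of the listed sarcomere genes, Actc1 at 23.8 CPM in the muscle gate against 1652 in the others. Of 8 somitic regulators 3 were tested and none was called, though their median log2 ratio was 1.25 against 0.12 for all tested genes. Of 14 partners and inhibitors of the myogenic factors 11 were tested and none was called, at a median of 0.34. Tcf12, a partner, was 435 CPM in the muscle gate against 287 CPM, and the inhibitors Id3 and Id2 were 500.1 and 458 CPM against 480.0 and 239 CPM. The 8 cell cycle genes, all tested, gave no call and a median log2 ratio of 0.15.

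How the members shared cells was read next. Cells with Myf5 held each early factor more often than cells without it. Of 701 Myf5 cells, 71.0% (67.5 to 74.4) held Tcf21, 63.1% (59.4 to 66.6) Lhx2 and 47.2% (43.5 to 51) Msc. Among cells without Myf5 the shares were 25%, 3.01% and 5.88%. The share with Lhx2 was 79.0%, 57.7%, 52.4%, 57.4%, 55.2% and 68.9% in libraries 1 to 6, above the 3.01% of the other cells in each.

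The reverse shares were lower. Of Lhx2 cells 29.4% held Myf5, of Msc cells 13.8% and of Tcf21 cells 5.34%. Both shares of a pair have the same cells as numerator, so their ratio is only that of the numbers of cells with each gene, and it sets no order in time by itself. At 10000 UMIs per cell, 53.1% of Myf5 cells held Lhx2, 56.4% Tcf21 and 27.3% Msc, and 19.4% of Lhx2 cells held Myf5.

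Myod1 and Myog lay partly outside the Myf5 cells. Of 156 Myog cells 49.4% (41.3 to 57.5) held Myf5, and of 99 Myod1 cells 31.3% (22.4 to 41.4) did, against 1.74% and 1.87% of cells without Myog and without Myod1. Of the 837 cells with any of the 3 factors, 610 held Myf5 alone, 60 Myf5 with Myog, 14 Myf5 with Myod1 and 17 all 3. Myod1 alone was found in 57 cells, Myog alone in 68 and both without Myf5 in 11. Library 3 held 11 of the 17 cells with all 3 factors, and library 4 none. With so few UMIs per cell a factor that gave none may still be expressed.

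Of the Myod1 cells, 8.08% (3.56 to 15.3) held Lhx2, against 4.17% of cells without Myod1, where 63.1% of Myf5 cells and 20.5% (14.5 to 27.7) of Myog cells did. Tcf21 was found in 58.6% of Myod1 cells and 43.6% of Myog cells, against 25.8% both of cells without Myod1 and of cells without Myog. In the muscle gate, 5 of 19 Myod1 cells held Lhx2 (26.3%, 9.15 to 51.2), against 38.7% of its cells without Myod1. Of 24 Myog cells there, 16 held Lhx2 (66.7%, 44.7 to 84.4), against 37.6% of its cells without Myog.

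**Figure D2:**
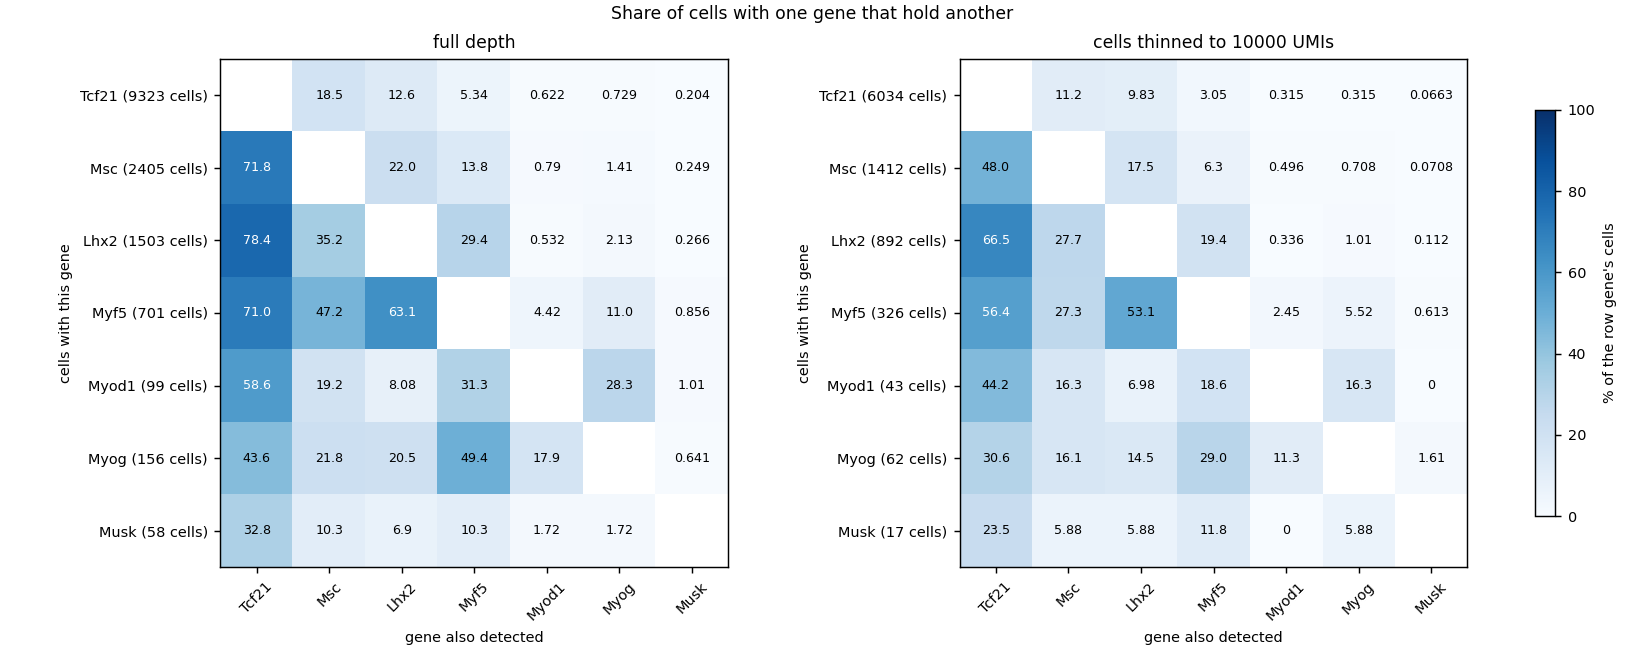
Percent of the cells with the row gene that also hold a UMI of the column gene, at full depth and with every cell thinned to 10000 UMIs; the number of cells with the row gene stands beside its name. The Myf5 row is high under Tcf21, Lhx2 and Msc (71.0%, 63.1% and 47.2% at full depth), and the Tcf21 row is low under Myf5 (5.34%).

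Myf5 detection climbed with the amount of Lhx2 in the cell. Among cells with 0 Lhx2 UMIs 0.752% held Myf5, and among those with 1 UMI 4.75% (3.18 to 6.79). With 2 to 4 UMIs the share was 29.6% (25.1 to 34.4), with 5 to 9 it was 50.8% (45.1 to 56.5), and with 10 or more 65.2% (58.5 to 71.4). The median depth of these classes was 32852, 32182, 26852, 28554 and 38127 UMIs. From the class of 2 to 4 Lhx2 UMIs upward, depth rose along with the share. The same order of shares was seen inside the muscle gate, with 4.86%, 16.7%, 50%, 56.1% and 79.8% of 535, 48, 78, 114 and 94 cells, where median depth rose from 26527 to 38563 UMIs between the first and the last class. In the gate the intervals for 2 to 4 and 5 to 9 UMIs (38.5 to 61.5 and 46.5 to 65.4) overlapped, so these classes could not be told apart. The contribution of depth was not tested by class, either over all cells or within the gate.

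Myf5 detection also climbed with the number of early factors in a cell. Myf5 was held by 0.623% of the 25667 cells with none of Tcf21, Msc and Lhx2, by 1.07% of those with 1, by 9.48% of those with 2 and by 54.8% (50.3 to 59.3) of the 498 cells with all 3. Over libraries the last share ran from 44.6% to 69%. In the muscle gate the shares were 0 of 123 cells, 5.71%, 35.5% and 65.1%. Thinned to 10000 UMIs they were 0.336%, 1.06%, 12.7% and 25.1% over all cells and 2.64%, 6.48%, 21.9% and 30.3% in the muscle gate. At equal depth the intervals of neighbouring steps did not overlap over all cells. The library ranges for 2 and 3 factors, 8.54% to 20.7% and 16.1% to 40%, did overlap. In the muscle gate the intervals for 0 and 1 factor (0.976 to 5.66 and 4.15 to 9.56) and for 2 and 3 factors (16.5 to 28.1 and 20.2 to 41.9, the last from 76 cells) overlapped, so these steps could not be told apart there.

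Myog and Myod1 stayed rare in these cells. Among the 498 cells with all 3 early factors, 4.42% (2.79 to 6.61) held Myog and 1.00% (0.327 to 2.33) Myod1, and among the cells with none 0.308% held Myog and 0.152% Myod1. Of the 192 such cells in the muscle gate, 6.77% held Myog and 1.04% Myod1.

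**Figure D3:**
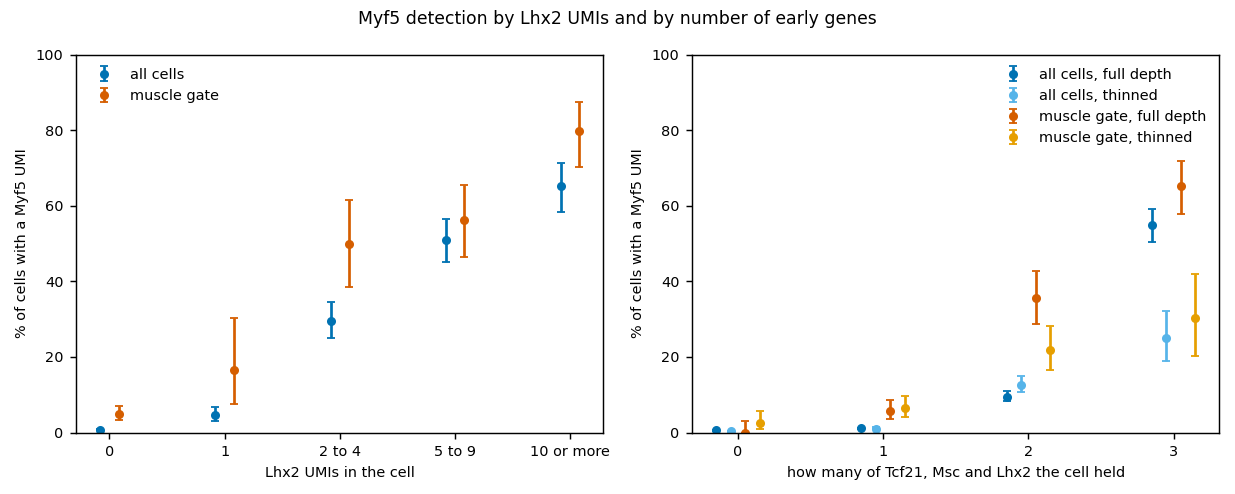
Percent of cells with a Myf5 UMI, with exact 95% intervals, by the number of Lhx2 UMIs in the cell (left) and by how many of Tcf21, Msc and Lhx2 the cell held (right), for all cells and for the muscle gate at full depth, and on the right also thinned to 10000 UMIs. The share climbs from 0.752% of cells without Lhx2 to 65.2% of those with 10 or more Lhx2 UMIs.

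The Myf5 cells were then split by genes of the somites. Pax3, Lbx1 and Pax7 are regulators of somitic and migrating trunk muscle precursors. Of the 701 Myf5 cells, 212 held a UMI of at least 1 of them and 489 held none, a split chosen after the data had been seen. The 212 made up 27.2%, 29.7%, 44.8%, 17.8%, 37.1% and 25.5% of the Myf5 cells in libraries 1 to 6. Of the 489, 93.9% (91.4 to 95.8) held Tcf21 or Lhx2, and of the 212 only 30.2% (24.1 to 36.9) did. In each library the first share was at least 89.0% and the second at most 44.4%.

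The early head factors were concentrated in the cells without a somitic gene. Lhx2 was at 186 CPM there and 37.0 CPM in the cells with one, Tcf21 at 159 and 34.6 CPM, and Msc at 51.9 and 13.6 CPM. Myf5 itself was at 56.2 and 70.1 CPM. All 3 early factors were called higher in the cells without a somitic gene, among 0.508% of 8854 tested genes, in the 5 libraries with 20 cells on each side. The 45 genes behind that share became 77 without library 5, 80 without library 6, 361 with 2 UMIs to count as detected, and 212 or 275 with Pax3 or Lbx1 alone as the somitic gene. Myog was called lower, among 1.08%. Myf5 was not called, and Myod1 and Musk were below 10 CPM on both sides.

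The differentiation factors ran the other way. Myog UMIs were found in 27.8% (21.9 to 34.4) of the Myf5 cells with a somitic gene, and in 20.5%, 33.3%, 55.3%, 16.7%, 16.3% and 11.1% of them in libraries 1 to 6. Of the Myf5 cells without one, 3.68% (2.20 to 5.76) held Myog, 1.37% to 8.62% over libraries. The groups of 6 library values did not overlap. Library 3 was highest in both, and without it the first share was 20% (14.2 to 26.9). The cells with a somitic gene were deeper, at a median of 41449 against 32046 UMIs. At 10000 UMIs per cell the sets were made again, with 83 and 243 cells. A cell that lost its somitic UMIs by thinning thus moved to the set without a somitic gene. The shares there were 12.0% (5.93 to 21.0) and 3.29% (1.43 to 6.38), with overlapping intervals. With 2 UMIs needed to count as detected, at full depth, the shares were 17.5% and 0.784%.

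Myod1 followed Myog. It was found in 25 of the 212 cells (11.8%, 7.78 to 16.9) and 6 of the 489 (1.23%, 0.452 to 2.65). Library 3 gave 31.9%, and the other libraries 3.70% to 9.09%. Myf6, the remaining factor of the family, was found in 10.8% and 3.27% of the cells, with library 2 reversed at 3.03% and 6.41%, and these shares are not matched for depth. Musk was found in 3 cells of each set.

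Of the 489 cells without a somitic gene 191 were in the muscle gate, 175 in none and 0 in the paraxial gate. Of the 212 with one, 94 were in the paraxial gate, 62 in several gates and 21 in the muscle gate. The paraxial list includes the 3 somitic genes, so its gate had to favour the second set. A mixed set of 64 cells held Myf5, a somitic gene and Tcf21 or Lhx2 together. Of these, 9 (14.1%, 6.64 to 25) were among the highest doublet scores, against 11 of the 148 other cells with a somitic gene (7.43%, 3.77 to 12.9), 44 of the 489 without one (9%) and 4.86% of all cells. The part of doublets in the mixed set was not tested.

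Genes that the split did not use separated the sets as well. Of 18 upstream regulators 17 were tested, with 5 called higher in the cells without a somitic gene and 3 lower. Tbx1 was 178 CPM there against 41.7 CPM, Ebf1 425 against 106, Ebf2 123 against 29.9 and Rxrg 33.5 against 8.40 CPM, and Isl1 was the fifth, at 349 against 99.4 CPM. Met, the receptor of migrating muscle precursors, was among those lower, at 2.88 against 42.5 CPM, as was Eya2, named after its value was seen, at 8.36 against 39.3 CPM. Of the 5 somitic regulators called lower, Tcf15 (3.40 against 356 CPM) and Meox1 (12.7 against 73.4 CPM) were not used for the split. No differentiation gene among 12 tested, no partner or inhibitor among 10, and none of 8 cell cycle genes was called.

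Over all genes, Tlx1, a homeobox factor, had the largest fold in the cells without a somitic gene, at 84.5 CPM against 2.59 CPM. Its share of cells varied with the library, from 19.3% in library 4 to 61.5% in library 2. Kazald1, Unc5d, Edn1, Plcl1, Ntrk2, Plcxd3, Lhx2, Foxl2 and Chrdl1 came next, at 10.2-fold to 4.58-fold. Edn1 encodes endothelin 1, a signal of the arches, and was 26.5 against 3.52 CPM. On the other side, after Pax3, Lbx1 and Tcf15, came Fap, Tmem132d, Adamts16, Epha6, Zcchc12, Gabra2 and Asb4, Asb4 at 22.6 against 366 CPM.

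**Figure D4:**
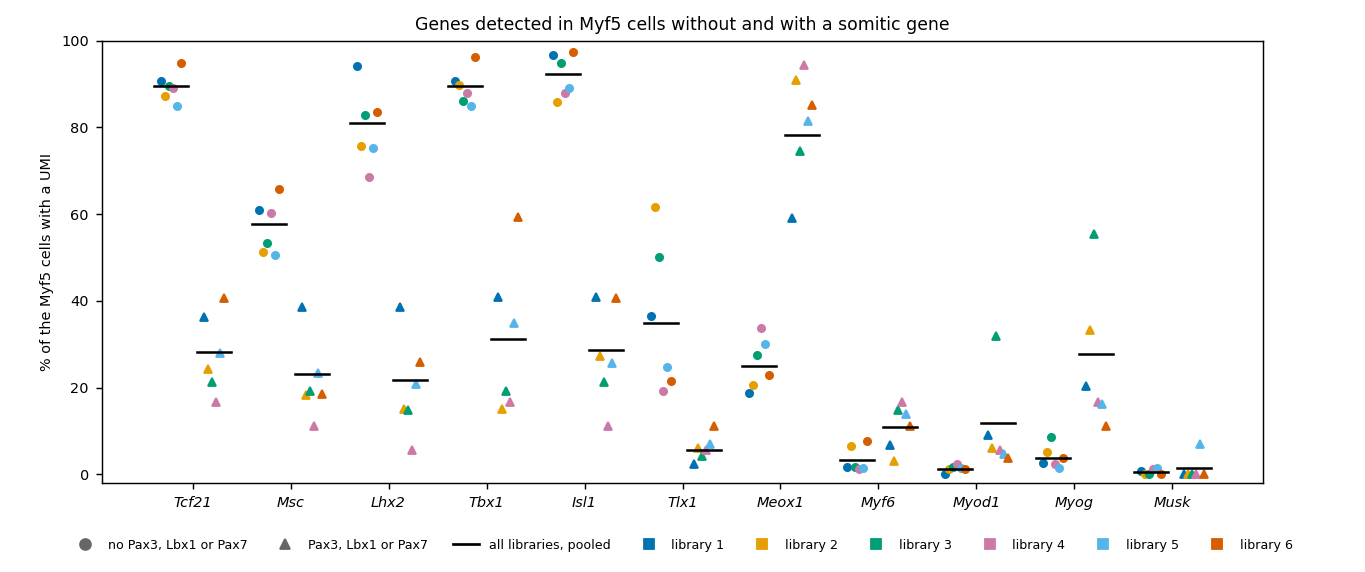
Percent of Myf5 cells in which each gene had a UMI, for the 489 cells without Pax3, Lbx1 or Pax7 (circles) and the 212 with one of them (triangles); points are the 6 libraries and bars all libraries pooled. Tcf21, Msc and Lhx2 are found more often in the circles, and Myog less often (3.68% against 27.8%).

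Lhx2 cells were then split by Myf5, 442 with and 1061 without it. Across 9184 tested genes, 0.468% were higher and 2.08% lower in the Lhx2 cells with Myf5. Most of these calls were lost when 2 UMIs were needed to count as detected, as given in the last section. Of the members, Myf5 defined the split and was the only one called. Lhx2 was 220.3 against 90.3 CPM, Msc 54.9 against 18.5 CPM and Tcf21 167 against 122 CPM, with no call for any of them. Myog was 1.23 against 0.354 CPM and Myod1 0.369 against 0.218 CPM.

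The cells without Myf5 were spread over many types. Of the 1061, 148 were in the muscle gate, 128 in the epicardium gate, 81 in the second heart field gate, 64 in cushion mesenchyme, 194 in several gates and 282 in none. Of the 442 with Myf5, 186 were in the muscle gate, 2 in the epicardium gate and 172 in none. The genes with the largest falls included those of the epicardium, with Wt1 at 1.60 against 55.4 CPM, Krt19 at 1.66 against 42.3 CPM, Upk3b at 4.98 against 94.1 CPM and Upk1b at 2.27 against 50.2 CPM. All 4 are markers of the epicardium list.

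The genes higher in the Lhx2 cells with Myf5 were led by Nr5a2, a nuclear receptor, at 83.7 against 12.2 CPM, and Emx2, a homeobox factor, at 94.7 against 16.0 CPM. Klhl14, Prmt8, Mrln, Fam169b, Runx1, D430041D05Rik and Col25a1 followed at 5.62-fold to 4.55-fold. Mrln encodes myoregulin, a small membrane peptide of muscle, and was 32.1 against 5.57 CPM. Of the 16 upstream regulators tested, Fgf10 (114 against 39.1 CPM), Isl1 (397 against 150 CPM) and Rxrg (36.3 against 13.1 CPM) were called higher, and Gata6 (9.95 against 99.2 CPM) and Mef2c (26 against 98 CPM) lower. Rapsn, the rapsyn that clusters acetylcholine receptors, was the 1 of 3 tested Musk complex genes called higher, at 10.0 against 2.47 CPM. Lhx9, the closest relative of Lhx2, was called lower, at 1.29 against 18.9 CPM, as were Id4 (3.69 against 13.4 CPM) and Cdkn1c (346 against 1245 CPM).

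Fewer genes were called inside the muscle gate, where fewer cells were compared. There, 186 Lhx2 cells with Myf5 were set against 148 without it in 5 libraries, and 0.0225% of 8901 tested genes were higher and 0.225% lower. Only Myf5 and Mrln were called higher, Mrln at 38.2 against 13.9 CPM. Lhx2 was 249.4 against 171 CPM, Msc 65.6 against 50 CPM and Tcf21 197 against 211 CPM, none of them called. None of the 7 gene lists had a called gene. The list medians of the log2 ratio ran from -0.73 for the 2 somitic regulators tested to 0.73 for 8 differentiation genes. For 6 tested genes among Lhx9 and the LIM partners of Lhx2 the median was -0.69. Upstream regulators were at 0.05 and all tested genes at -0.03. Cdkn1a, an inhibitor of the cell cycle, was 99.0 against 33.3 CPM without a call, and Tnnt1, a troponin, 121 against 60.6 CPM. The cells with Myf5 were the deeper, at a median of 36887 against 28403 UMIs, and the part of depth in the split was not tested. The largest falls were those of Nlgn1, Tafa2, Kdr, Grin2a and Dcc, from 11.5-fold to 7.56-fold. Barhl2, a homeobox gene, was at 7.13 against 34.0 CPM.

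**Figure D5:**
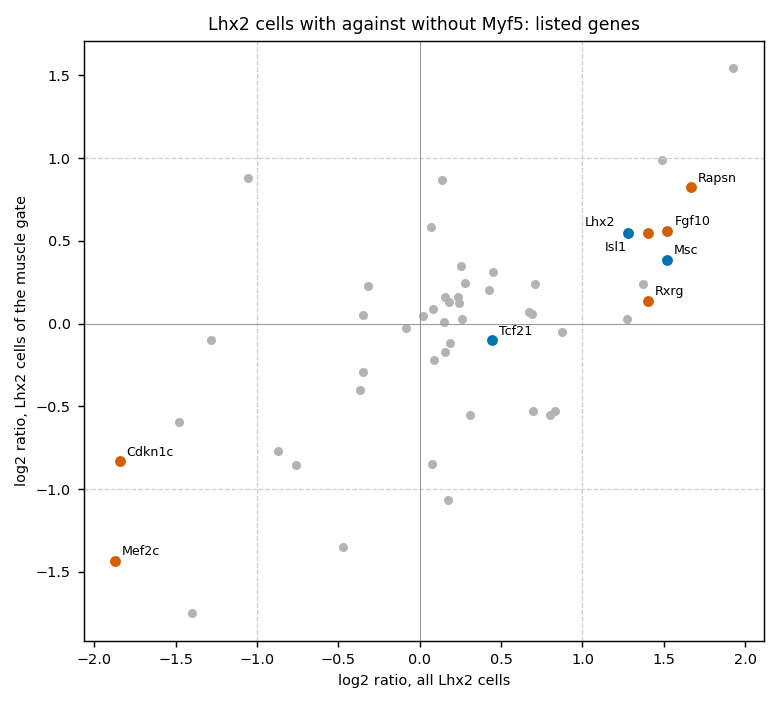
Log2 ratio, with 1 CPM added, of Lhx2 cells with against without Myf5, for the 52 listed genes and members tested in both comparisons; horizontal axis all Lhx2 cells, vertical axis Lhx2 cells of the muscle gate. Blue points are members, orange points other genes called over all Lhx2 cells, and dashed lines mark 2-fold; Isl1, Rxrg, Rapsn and Fgf10 pass 2-fold on the horizontal axis and stay under it on the vertical one.

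Genes of differentiated muscle were counted per cell. Of the 25 differentiation genes, a Myog cell held a median of 5, a Myf5 cell 5, a muscle gate cell 4 and all cells 3, against 12 in the cardiomyocyte gate, which shares sarcomere genes. One cell stood out, chosen after its values were seen. The library 5 cell with 21 Myog and 4 Musk UMIs held 21 of the 25 genes, and the next of the Myog cells held 14. At 32086 UMIs it carried 122 of Ttn, 37 of Mylpf, 28 of Neb, 20 of Myh3, 4 of Chrng, 3 of Rapsn and 2 of Mymk, the fusion factor of myoblasts. It held 5 Myf5, 15 Myf6 and 2 Pax3 UMIs, and no UMI of Tcf21, Msc, Lhx2 or Myod1. Mymk was found in 23 of the 35962 cells, 2 of them with Myog and 1 with Myf5, and Myh3 in 129, 2 with Myog and 4 with Myf5. Chrng was found in 164 cells, 2 with Myog and 18 with Myf5, where Myf5 was held by 1.95% of all cells.

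Genes with the most similar pattern were ranked over 82 sums of a gate in a library, by Pearson correlation of log2(CPM + 1) among 11775 genes. These sums share libraries, and r is a description. Rxrg is a marker of the muscle gate and Lbx1 of the paraxial gate, so the gates fixed their pattern in part. Lhx2 was most like Rxrg (r = 0.88), Ano5 (0.85) and Barhl2 (0.84), and Tcf21 most like Smim41 (0.90), Grin2a (0.88) and Rspo1 (0.86). Myf5 was most like Pcp4 (0.87), Adamtsl3 (0.83) and Grem1 (0.79), and Myog most like Adamts16 (0.84), Lbx1 (0.83) and Arpp21 (0.83). Msc was most like Chrdl1 (0.78), Neto1 (0.77) and Pgf (0.75), and Myod1 most like Arpp21 (0.75), Adamtsl3 (0.73) and Pcp4 (0.66). No gene came above 0.42 for Musk. Among the members, Myf5 and Myog reached 0.84, Myod1 and Myog 0.85 and Lhx2 and Tcf21 0.71, while Myog and Tcf21 were at 0.06.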

How the data were processed

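Single-cell RNA was counted in droplets (10x Genomics 3′ kit, version 3). The authors deposited 1 matrix of whole UMI counts per gene and cell for all 6 libraries, and per the file headers the writer was Cell Ranger 5.0.0; mm10, CASAVA 1.8 and Seurat 4 stand in the submitters' processing notes with no role. No file pairs a library with a sample, and 0 columns of per-sample values were left unused.

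Cells with at least 2500 genes and at most 10% mitochondrial UMIs were kept. Each of 17 marker lists was scored per cell as the weighted share of its markers at 2 or more UMIs, with minus log2 of a marker's share of cells as weight, up to 6, or 0 for a marker in under 0.2% of cells. A gate needed 3 markers, and a next best score of at least 70% of the best gave "several gates". This scoring was chosen after the data had been seen, and the members and lists with earlier results of these data known. CPM is UMIs per 1000000 in a sum of cells, with exact Poisson intervals; shares have exact Clopper-Pearson intervals. Thinning to 10000 UMIs was hypergeometric and left out 1009 shallower cells, 1 in the muscle gate and 7 in the paraxial gate. Doublets were kept; the 1746 highest scores from simulated pairs, 0.8% per 1000 cells, were removed in an alternative.

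Named genes were the members, from each list at most the 4 highest in the muscle gate, the 4 largest and the 2 smallest folds, the 10 largest folds each way in a comparison and the 3 genes most like each member. Python 3.11.15, numpy 2.4.6, scipy 1.17.1, pandas 2.3.3 and scikit-learn 1.9.0 were used. Values of 1 listed gene are not reported here.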

Additional observations from a re-analysis of the deposited data

How the results depend on the processing

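Of 248 values recomputed for 20 results, 171 stayed within the counting interval, or within 1.5-fold for a count of genes. No paired analysis was possible because no file pairs libraries with samples. Lhx2 in the muscle gate was 83.6 to 102 CPM when each library was left out, 120.0 CPM with 1 more marker for a gate and 84.3 CPM thinned; Myf5 was 17.2 to 20.2, 30.1 and 15.1 CPM. Lhx2 was held by 58.3% to 64.9% of Myf5 cells without each library, 53.1% thinned and 87.7% in the muscle gate. Myf5 was held by 27.3% to 31.2% of Lhx2 cells without each library, 25.4% with 2 UMIs to count as detected, 19.4% thinned and 55.7% in the muscle gate. Myog was held by 20% to 30.8% of Myf5 cells with a somitic gene without each library, 17.5% with 2 UMIs, 12.0% thinned and 37.8% with Lbx1 alone as the somitic gene. Without a somitic gene the share was 3.02% to 4.09% without each library and 0.784% with 2 UMIs.

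Counts of genes moved most. Of Lhx2 cells with against without Myf5, 43 genes were higher and 191 lower, which became 1 and 19 with 2 UMIs to count as detected, 2 and 20 in the muscle gate, and 9 and 71 at 3-fold, and ran from 44 to 52 and from 201 to 232 without each library. Of Myf5 cells without against with a somitic gene, 45 were higher and 96 lower. They became 361 and 183 with 2 UMIs and 8 and 54 at 3-fold. The higher genes became 74 without the highest doublet scores, 212 with Pax3 alone and 275 with Lbx1 alone, and ran from 46 to 80 without each library, with 77 without library 5 and 80 without library 6; the lower ones ran from 95 to 109. With fewer cells a library can drop under 20 cells and no longer count. Pax3 and Lbx1 alone were added after the data had been seen.

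Depth limits Myod1, Myog and Musk, with 156, 260 and 61 UMIs in all. Tcf21 in the epicardium gate was 205.8 CPM without the barcodes shared between libraries and 223 CPM without the highest doublet scores. The mean of the library values in place of the sum gave 29.8 CPM for Myf5 and 5.64 CPM for Myog in the paraxial gate, and 34.5 CPM for Msc in the second heart field gate.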
